A study of Mus musculus with 6 samples.

Results

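Sox genes encode transcription factors that share a DNA-binding HMG box, and 10 of them are described here in sorted embryonic mouse heart cells that had lost or kept Yap, the effector of the Hippo pathway. The 10 genes were Sox2, Sox3, Sox4, Sox5, Sox6, Sox7, Sox9, Sox11, Sox17 and Sox18, of 20 Sox genes and 19938 genes with a probe set of their own symbol. They were selected on the difference in log2 intensity between the Yap KO and Yap HET arrays and listed by name. Where a gene has several probe sets the rule takes the one with the highest mean over the 6 arrays, but each of the 10 had 1 probe set, so the mean decided nothing. Because these differences were known when the list was drawn up, the p-values below describe these arrays and lend no support of their own.

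The study measured RNA on Affymetrix mouse gene arrays, 3 from Yap KO and 3 from Yap HET embryos at stage E12.5, described as biological replicates. The Yap KO embryos lacked Yap in Cre-active cells through a floxed Yap allele and TNTCre, a Cre recombinase driven by the troponin T promoter, and carried the R26 mTmG reporter, whose green fluorescence marks Cre-active cells. The Yap HET embryos carried the same Cre, reporter and floxed allele but were heterozygous, so the comparison is with cells that kept 1 functional Yap copy and not with wild type. Hearts were digested one by one and green cells were sorted, so the sort could include any cell type in which this Cre had been active, and the sources used here do not say whether hearts were combined on 1 array or embryos shared a litter.

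Sox proteins bind the minor groove through the HMG box and bend DNA, and they usually act with a partner factor that sets which genes they control. Members with the most similar boxes form lettered groups with overlapping roles. SoxB1 genes (Sox2, Sox3) maintain neural progenitors, SoxC genes (Sox4, Sox11) act in neurons and in the outflow tract of the heart, and SoxD genes (Sox5, Sox6) lack an activation domain of their own and assist other factors. Among the SoxE genes Sox9 drives cartilage and acts in the mesenchyme of the heart valves, and the SoxF genes (Sox7, Sox17, Sox18) act in endothelial cells.

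Values are deposited intensities on a linear scale, log2 changes are differences of group means, Yap KO minus Yap HET, given ± the standard error (SE), and adjusted p-values are those of limma, by Benjamini-Hochberg over 13632 tested genes. A gene was tested if its mean log2 intensity reached the 40th percentile of all probe sets, an intensity of 85.7. The median over all probe sets was 128 to 133 on the Yap KO arrays and 132 to 140 on the Yap HET arrays. Yap1, the targeted gene, read 103, 84.7 and 86.6 on the Yap KO arrays, against 886, 927 and 871 on the Yap HET arrays, 9.81-fold lower. The 12 cardiomyocyte markers read 2158 to 12981 on all arrays and had a median log2 change of 0.01, with Actc1, Myl7 and Tnnt2 the 3 of highest mean and Nppa (log2 change 0.19 ± 0.05 SE) the 1 that passed the threshold. No detection call was available, and the 8 foregut and lung bud markers, which a cardiomyocyte sort should leave out, read 26.7 to 345, so an intensity in that range does not show that a gene was expressed.

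Of the 10 Sox genes, 9 were tested, and 3 of these 9 passed the threshold: Sox9 was higher and Sox3 and Sox6 were lower in Yap KO cells. Over all tested genes 9.93% passed, 5.16% higher and 4.76% lower. With so few genes, listed with their values known, nothing is read from the difference between these shares. The counts of genes that rose or fell in the lists below stand beside the same shares of all tested genes. The share of all tested genes at an unadjusted p under 0.05 is not given here, so list counts at that level are descriptive only. Under median centring of the arrays the calls were 3 higher and 1 lower, while 10.2% of all tested genes passed. Of all called genes 75.7% were then higher, against 52.0% in the fit used here. The groups did not overlap for 5 of the 9, Sox4 and Sox11 being the others, while 33.9% of all tested genes had groups that did not overlap. With 1 array left out, the share of all tested genes that passed was 7.61%, 3.18% and 5.13% without Yap KO replicates 1, 2 and 3, and 3.18%, 10.1% and 5.05% without Yap HET replicates 1, 2 and 3. The Sox genes that passed were then 3, 1, 2, 2, 2 and 3 in the same order, and the 1 left without Yap KO replicate 2 was Sox3. Sox17 was the 1 gene under the filter. The median log2 change was 0.02 over the 9 Sox genes and -0.02 over all tested genes.

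Sox3, an X-linked SoxB1 gene known for its roles in neural progenitors and the pituitary, showed the largest change of the 9. Its intensity was 156, 156 and 180.2 on the Yap KO arrays, against 291, 295 and 326 on the Yap HET arrays. Every Yap KO value was below every Yap HET value, and the gap between the groups was wider than the spread within either. Sox3 averaged 164 ± 13.9 in Yap KO cells and 304 ± 19.3 in Yap HET cells (SD, n = 3 each), a 1.85-fold lower level (log2 change -0.89 ± 0.08 SE, limma adjusted p = 0.00137). All 6 readings lay within the 26.7 to 345 of the foregut markers, so they do not show that Sox3 was expressed, and the fold is that of the probe set's readings. With any 1 array left out the log2 change stayed between -0.96 and -0.84 and passed the threshold. The call ended when every probe set was tested (adjusted p = 0.0538).

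Because Sox3 lies on the X chromosome, the sex-linked transcripts were read beside it. Xist, the RNA that coats the inactive X, read 3015, 988 and 1356 on the Yap KO arrays and 2112, 2313 and 600 on the Yap HET arrays. The Y-linked Eif2s3y read 19.7, 691 and 515 on the Yap KO arrays and 305, 191 and 788 on the Yap HET arrays, and Kdm5d and Uty followed the same order. These readings thus varied widely within both groups, and 0 of the 4 sex-linked transcripts tested passed the threshold (limma), with 0 at an unadjusted p under 0.05. On every array except Yap KO replicate 1, Eif2s3y read 191 or more beside Xist at 600 or more. RNA of both sexes combined on an array would read so, but the number of hearts per array was not tested. With Xist as a covariate the log2 change of Sox3 was -0.88 ± 0.07 (SE, limma adjusted p = 0.00215).

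Sox2, the other SoxB1 gene listed, a factor of pluripotent and neural stem cells, read 145, 126 and 130.5 on the Yap KO arrays, against 134, 95 and 134 on the Yap HET arrays. The groups overlapped, and the lowest value came from Yap HET replicate 2. The log2 change was 0.15 ± 0.13 (SE), with a 95% confidence interval of -0.16 to 0.47 (limma adjusted p = 0.49), and without that array it was -0.01. The same array gave the lowest Yap HET value for 13 of the 20 Sox genes, as it did for 25.1% of all tested genes and for 47.7% of the 4615 tested genes with a mean intensity under 256. Set against Sox2 on each array, Sox3 changed by -1.05 more (exact two-sided permutation p = 0.1, the smallest that 3 arrays against 3 allow), a pair chosen after the values were seen.

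Genes of neural progenitors and pluripotent cells, the settings in which SoxB1 factors are known, moved both ways. Of 10 listed, 6 were tested, 2 rose and 1 fell, and the median log2 change was -0.09. Fabp7, a fatty acid binding protein of radial glia, read 128, 109.9 and 146 on the Yap KO arrays, against 67.5, 82.0 and 79.6 on the Yap HET arrays (log2 change 0.74 ± 0.11 SE). All of its Yap HET values were under the filter level, so it was tested only through its Yap KO values, and without it 1 gene rose. Nes, an intermediate filament gene also expressed outside the nervous system, rose by 0.65 ± 0.15 (SE). Nanog, a pluripotency factor gene, read 108, 109 and 113 on the Yap KO arrays, against 135, 124 and 146 on the Yap HET arrays (log2 change -0.29 ± 0.07 SE). All readings of Fabp7 and Nanog lay within the range of the foregut markers, so they do not show that either gene was expressed.

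Sox4 and Sox11, the SoxC genes whose loss in mice disturbs outflow tract formation, were both slightly higher in Yap KO cells without passing the threshold. Sox4 read 969, 965 and 946 on the Yap KO arrays, against 877, 849 and 825 on the Yap HET arrays. Its lowest Yap KO value lay above its highest Yap HET value, and the log2 change was 0.18 ± 0.05 (SE, limma adjusted p = 0.0623, range over 17 alternatives 0.0235 to 0.198). Sox11 read 966, 940.4 and 931 on the Yap KO arrays, against 876, 805 and 784 on the Yap HET arrays. Its groups did not overlap either, and the log2 change was 0.20 ± 0.06 (SE, limma adjusted p = 0.0642, range over 17 alternatives 0.0164 to 0.21). The log2 changes of Sox11 and Sox4 differed by 0.03 (exact two-sided permutation p = 0.4). The third SoxC gene, Sox12, read 1313, 1196 and 1240 on the Yap KO arrays and 1314, 1243 and 1232 on the Yap HET arrays, and its 95% confidence interval ran from -0.15 to 0.12 on the log2 scale.

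The promoters of Sox4 and Sox11 are shown because these 2 genes moved together, and 1 promoter of Sox6 because that gene was lower in Yap KO cells. TEAD factors, through which Yap reaches DNA, bind the motif GGAATG. Promoter windows of 250 bases before to 50 after the gene start were matched in RefSeq sequences (GRCm38.p6) for 5 of the 10 Sox genes, 10 windows in all, 6 of them Sox6. No window was available for Sox3, Sox7, Sox9, Sox17 or Sox18. The Sox6 window shown is 1 of the 2 that hold the motif on either strand. Capitals mark GGAATG or its reverse complement CATTCC.
Sox4, chr13:28953650-28953949, minus strand: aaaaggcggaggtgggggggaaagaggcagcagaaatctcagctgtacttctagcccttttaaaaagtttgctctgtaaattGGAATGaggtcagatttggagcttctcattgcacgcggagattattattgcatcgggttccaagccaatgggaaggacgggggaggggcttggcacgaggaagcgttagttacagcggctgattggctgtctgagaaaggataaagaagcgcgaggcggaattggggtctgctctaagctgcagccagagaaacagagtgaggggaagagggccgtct
Sox11, chr12:27342669-27342968, minus strand: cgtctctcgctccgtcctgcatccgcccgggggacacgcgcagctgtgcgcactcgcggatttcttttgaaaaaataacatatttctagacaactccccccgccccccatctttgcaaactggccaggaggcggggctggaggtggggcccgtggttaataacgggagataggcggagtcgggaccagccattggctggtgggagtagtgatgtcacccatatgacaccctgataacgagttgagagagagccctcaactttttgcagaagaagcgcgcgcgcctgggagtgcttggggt
Sox6, chr7:116038695-116038994, minus strand: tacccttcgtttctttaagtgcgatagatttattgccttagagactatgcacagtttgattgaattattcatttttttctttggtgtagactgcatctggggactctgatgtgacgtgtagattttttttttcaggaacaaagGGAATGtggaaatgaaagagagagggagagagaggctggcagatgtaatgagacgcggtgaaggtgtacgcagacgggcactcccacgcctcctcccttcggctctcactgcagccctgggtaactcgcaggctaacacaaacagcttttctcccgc

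The motif occurred once in the Sox4 window, starting 168 bases before the gene start (position -168), and 0 times in the Sox11 window. It was found in 2 of the 6 Sox6 windows, once each, at positions -107 and -132, in the Sox5 window 2 times, and 0 times in the Sox2 window. Over all 32851 promoter windows of this length, 14.7% held the motif on either strand. The Sox motif AACAAT, which does not overlap it, was searched in the same windows and occurred in 1 Sox6 window and in 10.7% of all windows. Such matches are letters in a window and not evidence of binding.

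Among 12 genes of neurons and the outflow tract, the settings of SoxC factors, 10 were tested, 3 rose and 0 fell. At an unadjusted p under 0.05 (limma) 4 were higher and 3 lower. Foxc2, a forkhead factor of the outflow tract and of vessels, read 253, 332 and 359 on the Yap KO arrays, against 187, 184 and 139 on the Yap HET arrays (log2 change 0.88 ± 0.15 SE). Only its reading on Yap KO replicate 3 exceeded the 345 of the foregut markers, so its other readings do not show that it was expressed. The T-box repressor genes Tbx3 (log2 change 0.47 ± 0.09 SE) and Tbx2 (0.34 ± 0.08), which mark conduction system and cushion-forming regions, also rose. Tead2, a TEAD factor gene and a known target of SoxC factors in mouse, read 1749, 1656 and 1619 on the Yap KO arrays, against 1899, 1864 and 1844 on the Yap HET arrays. Its groups did not overlap, and its log2 change of -0.16 ± 0.05 (SE) ran opposite to those of Sox4 and Sox11 but did not pass the threshold (limma adjusted p = 0.0924). The median log2 change of these 10 was 0.02.

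Sox6, a SoxD gene that silences embryonic globin genes and shapes fibre type in skeletal muscle, was lower in Yap KO cells. It read 427, 405 and 402 on the Yap KO arrays, against 491, 498 and 469.6 on the Yap HET arrays. The groups did not overlap, and the means were 411 ± 13.7 in Yap KO cells and 486 ± 14.9 in Yap HET cells (SD, n = 3 each). Sox6 was 1.18-fold lower (log2 change -0.24 ± 0.05 SE, limma adjusted p = 0.0292, range over 17 alternatives 0.00212 to 0.149). The call ended with no filter (adjusted p = 0.0812), with every probe set tested (0.149), under median centring (log2 change -0.18, adjusted p = 0.132) and without Yap KO replicate 2 (adjusted p = 0.117), Yap KO replicate 3 (0.0921), Yap HET replicate 1 (0.111) or Yap HET replicate 2 (0.0545), with log2 changes between -0.27 and -0.22 in all fits that left out 1 array. Sox6os, an RNA gene annotated at the Sox6 locus, read 112, 113 and 124 on the Yap KO arrays and 123, 132 and 109 on the Yap HET arrays, which overlapped.

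Sox5, the partner of Sox6 in cartilage, read 183, 178 and 187 on the Yap KO arrays, against 189, 179 and 179 on the Yap HET arrays. The groups overlapped, and the log2 change was 0.00 ± 0.05 (SE) with a 95% confidence interval of -0.11 to 0.12. On each array Sox6 was set against Sox5, and the log2 changes of the pair, chosen after the values were seen, differed by -0.24 (exact two-sided permutation p = 0.1, the smallest possible). Sox13, the third SoxD gene, read 351, 373 and 378 on the Yap KO arrays and 405, 391 and 420 on the Yap HET arrays. Its groups did not overlap, but its log2 change of -0.14 ± 0.05 (SE) did not pass (limma adjusted p = 0.136).

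Of 9 muscle and globin genes linked to SoxD factors, all tested, 0 rose and 2 fell. At an unadjusted p under 0.05 (limma) 1, Hbb-y, was higher and 3 were lower. Tnnt1, the slow skeletal troponin T gene, read 1263, 1362 and 1454 on the Yap KO arrays, against 2120.2, 2078 and 2002 on the Yap HET arrays (log2 change -0.61 ± 0.06 SE, limma adjusted p = 0.00268). Prox1, a homeobox gene of heart muscle and lymphatic endothelium, fell by 0.24 (log2 change -0.24 ± 0.05 SE). Tnni1, the slow skeletal troponin I gene, had the next smallest p-value (log2 change -0.13 ± 0.05 SE, limma adjusted p = 0.125). The embryonic globin gene Hbb-y, which Sox6 represses in red cells, read 1295, 449.9 and 86.3 on the Yap KO arrays and 232, 27.1 and 19.8 on the Yap HET arrays. These values overlapped and were spread widely within each group, and Hba-x, another embryonic globin gene, varied in the same order. The 5 erythroid markers with a probe set had summed intensities of 463 to 2622 on the Yap KO arrays and 334 to 735 on the Yap HET arrays. Of 4 tested, 0 passed the threshold (limma), and 1, again Hbb-y, had an unadjusted p under 0.05. The part of these markers in the globin values was not tested.

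**Figure D1:**
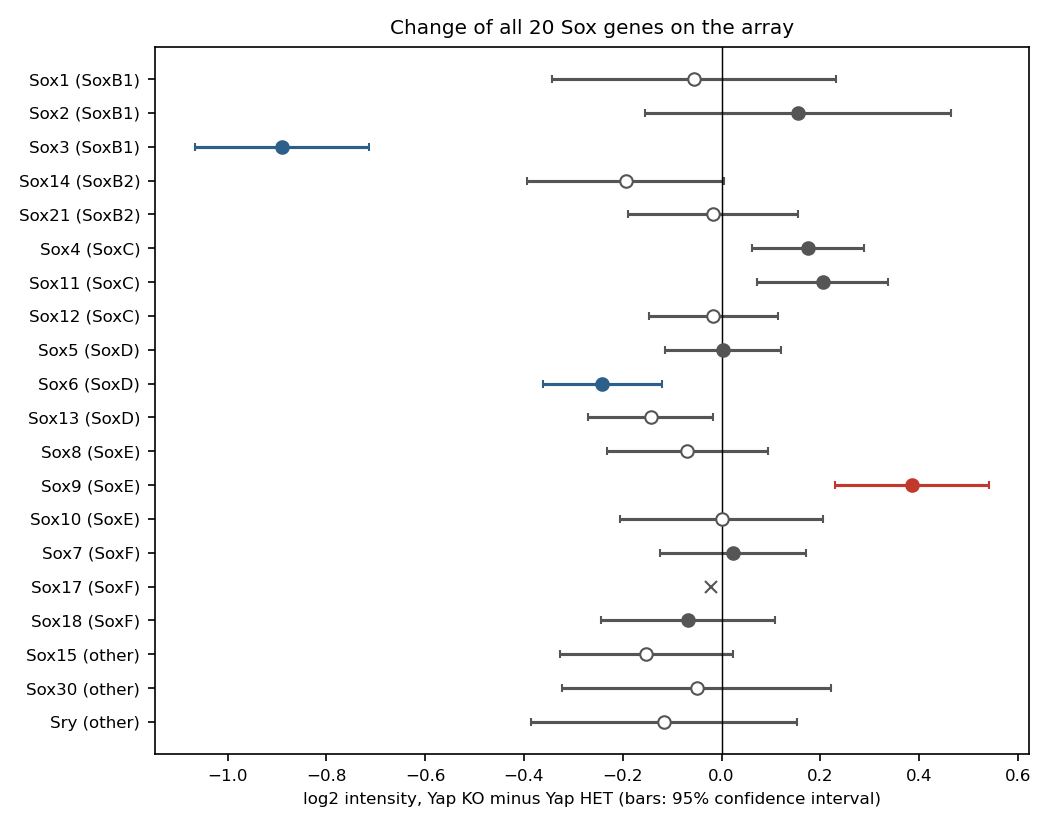
The log2 change, Yap KO minus Yap HET (horizontal axis), of the 20 Sox genes by family group, with 95% confidence intervals from limma. Filled circles are the 10 listed genes and open circles the others, red and blue mark adjusted p under 0.05, and the cross is Sox17, which was not tested. Sox3 lies farthest from 0 at -0.89, and the open circles lie between -0.19 and 0.00.

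Sox9, the SoxE gene of cartilage and of heart valve mesenchyme, was higher in Yap KO cells. It read 586, 649 and 676 on the Yap KO arrays, against 506, 466 and 489.9 on the Yap HET arrays. The lowest Yap KO value exceeded the highest Yap HET value, and the means were 637 ± 46.2 in Yap KO cells and 487 ± 20.1 in Yap HET cells (SD, n = 3 each). Sox9 was 1.31-fold higher (log2 change 0.39 ± 0.07 SE, 95% confidence interval 0.23 to 0.54, limma adjusted p = 0.0141, range over 17 alternatives 8.9e-04 to 0.123). Its call ended without Yap KO replicate 2 (log2 change 0.37, adjusted p = 0.0661) and with every probe set tested (adjusted p = 0.123). The other SoxE genes, Sox8 and Sox10, known from the neural crest, had log2 changes of -0.07 ± 0.07 and 0.00 ± 0.09 (SE), and both had overlapping groups.

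Some mesenchymal markers were higher in Yap KO cells, as Sox9 was. Of 14 listed, 13 had a probe set and were tested, 4 rose and 0 fell, while 5.16% of all tested genes rose and 4.76% fell. At an unadjusted p under 0.05 (limma) 8 were higher and 0 lower, and the median log2 change was 0.31. Pdgfra, a growth factor receptor of fibroblasts and cushion mesenchyme, read 659.6, 680.5 and 777 on the Yap KO arrays, against 315, 397 and 363 on the Yap HET arrays. Pdgfrb (log2 change 0.73 ± 0.08 SE), the matrix gene Postn (0.72 ± 0.13) and Snai2, a repressor active in epithelial-mesenchymal transition (0.52 ± 0.12), were the others that rose. Among the markers of highest mean, Fbln1 and Dcn had log2 changes of -0.05 and 0.00 with overlapping groups. The summed intensity of the 13 was 8945 to 11075 on the Yap KO arrays and 7886 to 8124 on the Yap HET arrays, and single readings ran from 96.6 to 2252. In RNA from a sorted pool, more cells of a type and more RNA per cell cannot be told apart.

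Set against the mean of the 13 mesenchymal markers on each array, Sox9 stood at 0.20, 0.21 and 0.02 log2 units on the Yap KO arrays and 0.15, 0.03 and 0.17 on the Yap HET arrays. These values overlapped, and Sox9 changed by 0.02 more than the marker mean, which rose by 0.36 (exact two-sided permutation p = 0.6). The marker mean on its own was 9.0, 9.13 and 9.38 on the Yap KO arrays, against 8.83, 8.83 and 8.76 on the Yap HET arrays. Sox9 and the marker mean had the same order on the Yap KO arrays, lowest on replicate 1 and highest on replicate 3, but not on the Yap HET arrays, where Sox9 was lowest on replicate 2 and the marker mean on replicate 3. Whether the markers' rise accounts for that of Sox9 was not tested beyond these values.

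**Figure D2:**
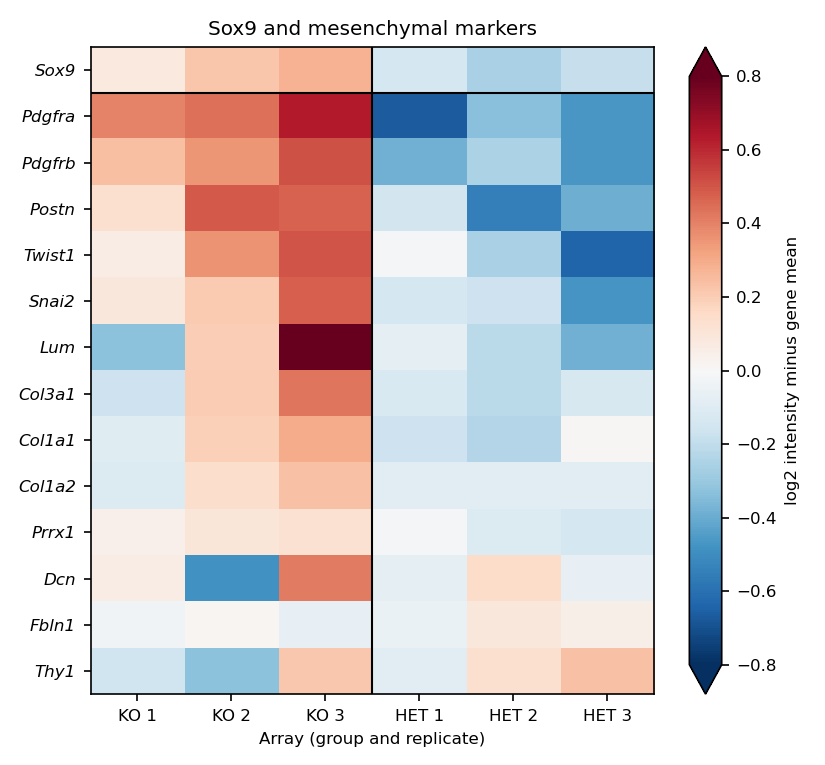
Heat map of Sox9 (top row) and 13 mesenchymal markers on the 3 Yap KO arrays (left) and 3 Yap HET arrays (right), coloured by log2 intensity minus the mean of each gene. Sox9, Pdgfra, Pdgfrb, Postn and Snai2 are higher on all Yap KO arrays, whereas Fbln1, Dcn and Thy1 at the bottom show no such split.

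Genes of cartilage and cushion matrix, many of them known targets of Sox9 with Sox5 and Sox6, were divided. Of 13 listed, 11 were tested, 4 rose and 0 fell, beside 5.16% and 4.76% of all tested genes. Among them 0 were lower at an unadjusted p under 0.05 (limma), and the median log2 change was 0.03. The hyaluronan synthase gene Has2 read 512, 518 and 536 on the Yap KO arrays, against 212, 219 and 209 on the Yap HET arrays (log2 change 1.29 ± 0.05 SE). Hapln1, which links hyaluronan to proteoglycans (log2 change 0.77 ± 0.16 SE), the large proteoglycan gene Vcan (0.33 ± 0.05) and the cartilage proteoglycan gene Acan (0.33 ± 0.07) also rose. Acan read 77.0 to 82.6 on the Yap HET arrays, under the filter level, so it was tested only through its Yap KO values. All 6 of its readings lay within the range of the foregut markers and do not show that it was expressed. Col2a1, the classical Sox9 target of cartilage, read 751, 795 and 737 on the Yap KO arrays and 801, 776 and 735 on the Yap HET arrays, which overlapped, and no collagen IX or XI gene of the list passed the threshold.

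The SoxF genes, regulators of endothelial and endocardial cells, lay near the filter level and did not separate the groups. Sox18 read 100.2, 116 and 119 on the Yap KO arrays, against 119, 110.4 and 121 on the Yap HET arrays (log2 change -0.07 ± 0.08 SE, 95% confidence interval -0.24 to 0.11). Sox7 read 83.7, 87.3 and 95 on the Yap KO arrays, against 87.7, 83.5 and 90.5 on the Yap HET arrays (log2 change 0.02 ± 0.06 SE, 95% confidence interval -0.12 to 0.17). Sox17, under the filter, read 67.9, 69.1 and 52.8 on the Yap KO arrays, against 59.4, 61.8 and 70.6 on the Yap HET arrays, and was not tested. The groups overlapped for all 3, and at these intensities expression cannot be told from background.

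Some endothelial markers differed between the groups. Of 14 listed, 13 were tested, 4 rose and 1 fell, beside 5.16% and 4.76% of all tested genes, and the median log2 change was 0.13. Kdr, the main VEGF receptor gene, read 399.98, 387 and 411 on the Yap KO arrays, against 225, 239 and 241 on the Yap HET arrays. The TGF-beta coreceptor gene Eng (log2 change 0.52 ± 0.08 SE), Ramp2 (0.35 ± 0.09) and the endocardial factor gene Nfatc1 (0.31 ± 0.08) also rose, and the endocardial gene Npr3 fell by 0.34 (log2 change -0.34 ± 0.06 SE). Summed over the 14 markers, intensity was 2529 to 2786 on the Yap KO arrays and 2239 to 2336 on the Yap HET arrays. Single readings ran from 73.9 to 411, and only Kdr and Nfatc1, on Yap KO arrays, exceeded the 345 of the foregut markers. The readings of the other markers therefore do not show that they were expressed.

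The mean log2 level of the 13 tested endothelial markers was 0.20 higher in Yap KO cells. Because all 3 SoxF probe sets read near or under the filter level, nothing is read from their change relative to these markers. Among 11 genes known as SoxF targets or partners in endothelium, 9 were tested, of which 2 rose and 3 fell, with a median of -0.05. Kdr and the receptor gene Notch1 (log2 change 0.41 ± 0.07 SE) rose, and Vcam1, an adhesion gene (-0.22 ± 0.05), Prox1 and Efnb2, an arterial ephrin gene (-0.32 ± 0.08), fell. Notch1 read within the range of the foregut markers on all arrays.

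**Figure D3:**
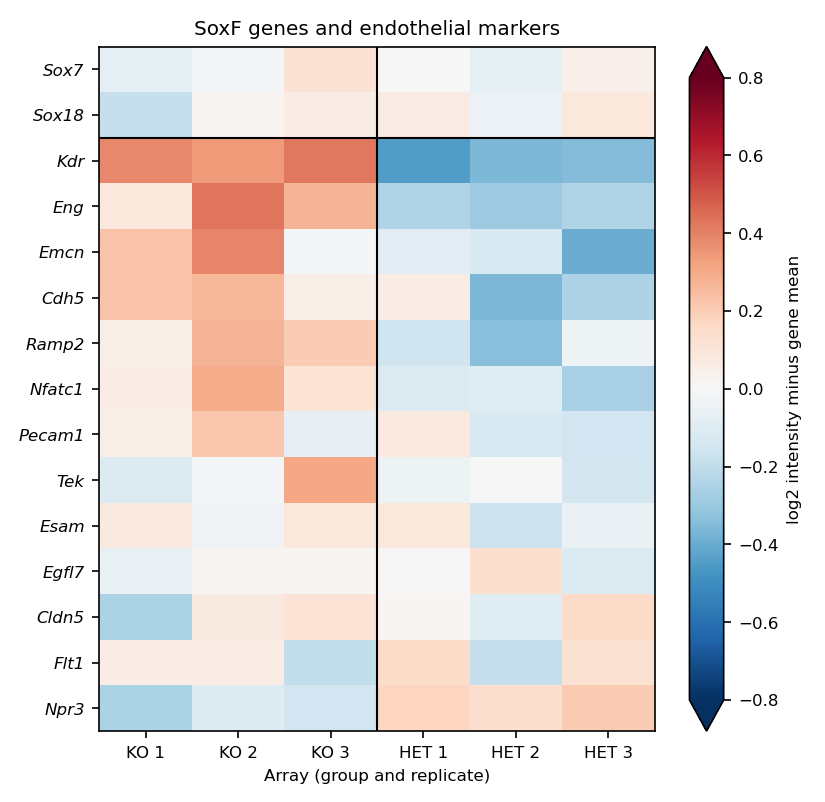
Heat map of Sox7 and Sox18 (top) and 13 endothelial markers on the 3 Yap KO arrays (left) and the 3 Yap HET arrays (right), coloured by log2 intensity minus each gene's mean. Kdr and Eng are higher on all Yap KO arrays and Npr3 lower, while Sox7 and Sox18 overlap between the groups.

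Markers of other cell types differed less evenly. Of 9 epicardial markers tested, 1 rose and 0 fell, 4 were lower at an unadjusted p under 0.05 (limma), and the median log2 change was -0.30. Tcf21, a factor of epicardium and fibroblasts, rose by 0.93 ± 0.17 (SE), and Upk3b, an epicardial surface gene of high mean, stood at -0.68 ± 0.19 (SE) on the same scale (limma adjusted p = 0.0606). The summed intensity of the epicardial list overlapped between the groups, 2851 to 4107 on the Yap KO arrays and 3930 to 4777 on the Yap HET arrays. Of 2 neural crest markers tested, 0 passed (limma, 1 higher at an unadjusted p under 0.05), and Sox10 did not differ beyond its spread. Of 5 macrophage markers tested, Lyz2 (log2 change 0.47 ± 0.11 SE) rose, 0 fell and 3 were lower at an unadjusted p under 0.05 (limma), with a median of -0.17. Of 5 foregut markers tested 0 passed, and 0 had an unadjusted limma p under 0.05.

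Of the 10 Sox genes outside the list 0 passed the threshold (limma), and 1, Sox13, had an unadjusted p under 0.05. Their log2 changes ran from -0.19 for Sox14 to 0.00 for Sox10, with a median of -0.06. Sox1, Sox14, Sox15, Sox21 and Sox30 had overlapping groups, as did Sox8, Sox10, Sox12 and Sry. Sry, the Y-linked founder of the family, read 567, 531 and 518 on the Yap KO arrays and 596, 486 and 687 on the Yap HET arrays. On Yap KO replicate 1, where the Y-linked Eif2s3y, Kdm5d and Uty read 19.7, 29.3 and 11, Sry read 567, its highest Yap KO value. On the Yap KO arrays it thus did not follow these Y-linked transcripts. On Yap HET replicate 3, where all 3 were highest, Sry was highest too at 687, but so were Sox1, Sox10, Sox14 and Sox15 among their Yap HET values.

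Genes with the most similar profile were sought for the 3 Sox genes with the largest changes, by the root mean square distance of log2 values centred on each gene's mean, over 6 arrays and all tested genes. Closest to Sox3 were Lrtm1 (distance 0.07), Amotl2 (0.09), an angiomotin gene that restrains Yap, and the corticotropin-releasing hormone receptor gene Crhr2 (0.10). Crhr2 read 135, 129 and 130.1 on the Yap KO arrays, against 237, 250.4 and 243 on the Yap HET arrays. Closest to Sox9 were the actin-binding gene Tagln2 (0.04), the potassium channel gene Kcnk6 (0.05) and the fatty acid binding gene Fabp4 (0.05). Closest to Sox6 were the RNA-binding gene Igf2bp1, the scaffold gene Iqgap3 (both 0.013) and the cyclin gene Ccnd3 (0.016). A distance of this kind chiefly reflects a like difference between the groups. All readings of Lrtm1, Crhr2, Kcnk6 and Fabp4 lay within the range of the foregut markers, so they do not show that these genes were expressed.

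**Figure D4:**
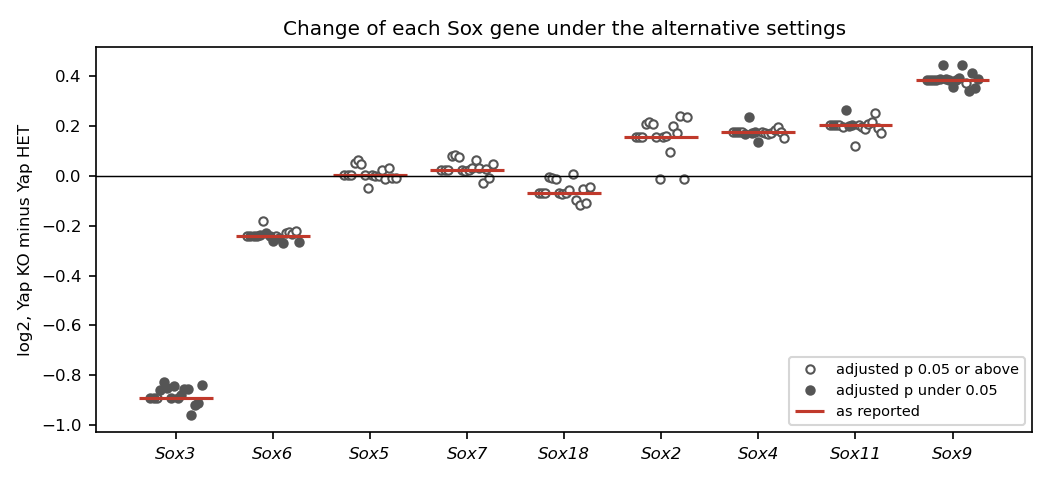
The log2 change, Yap KO minus Yap HET (vertical axis), of the 9 tested Sox genes as reported (red line) and under the alternative settings (circles, filled where the adjusted p is under 0.05). Sox3 and Sox9 keep their side of 0 in all settings with most circles filled, Sox6 is filled in some, and Sox2, Sox5, Sox7 and Sox18 cross 0 with no circle filled.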

How the data were processed

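Per the labels, RNA of sorted cells from 3 Yap KO and 3 Yap HET samples was labelled with biotin and hybridised to mouse gene arrays. Intensities of 35556 probe sets were deposited on a linear scale and ran between 2e-05 and 15701. RMA is named, without a version, per the submitters' processing notes. RMA usually gives log2 values, and the sources used here do not say how the deposited ones became linear. No depth applies, and the number of arrays limits the precision.

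Here intensities under 1 were set to 1 and log2 was taken. Of the probe sets, 21789 had 1 gene symbol in the platform annotation, 1621 several and 12146 none. Symbols were updated through Entrez identifiers (GRCm38.p6 RefSeq table, 21698 matched). Per gene the probe set with the highest mean was used, and 13632 of 19938 genes reached the 40th percentile. Groups were compared with limma 3.58.1 in R 4.3.3, with group as the only term and a threshold of 0.05. The fit was tested on simulated data with 50 genes changed at each size. It called 22% of those changed by 0.25 log2 units, 70% at 0.5 and 98% at 1, and 5 of its 150 calls were false. In that simulation most changes of 0.25 did not pass. Of its 13632 genes far fewer were changed than the 1353 called in these data, so its rates need not hold here. For Sox9 set against markers and for pairs of Sox genes, an exact two-sided permutation test over arrays was used. The alternatives covered the filter, the choice of probe set, the normalization, the prior, array weights, the replicate block, an Xist covariate and leaving out each array.

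The Sox genes and lists were chosen with earlier results of these data known. Named were the 10 Sox genes, the other Sox genes, list members past the threshold or with the smallest p, markers of highest mean, and the 3 nearest profiles. Tead2, Hbb-y, Hba-x, Col2a1, Sox6os and the paired comparisons of Sox genes were singled out after their values were seen.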

Additional observations from a re-analysis of the deposited data

How the results depend on the processing

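Among the Sox genes 1 passed the threshold upwards and 2 downwards in Yap KO cells, and both counts were recomputed under 11 alternative settings and with each array left out. With no filter they were 1 and 1, beside 2.55% of all genes. With the filter at the 60th percentile they were 3 and 1 (all 4 Sox genes left to test, without Sox3, beside 17.7% of all genes). With every probe set tested they were 0 and 0 (limma called 41 probe sets in all, 0.115%). They were 2 and 2 after quantile normalization, 3 and 1 after median centring, 3 and 2 after cyclic loess, 3 and 2 with a trended and robust prior, and 2 and 2 with array weights. Averaging probe sets per gene and Xist as a covariate left both counts as they were. With the replicate block they were 1 and 1 (698 genes called in all, 5.12%), and Sox6 had a limma adjusted p of 0.0738. Deviations from the group means correlated at -0.08, -0.17 and 0.12 between arrays of the same number. Between arrays of unlike number they correlated at -0.23 to 0.28. With 3 arrays per group these values cannot show whether arrays of the same number shared a litter or a batch. With single arrays left out the upward count ranged from 0 to 1, being 0 without Yap KO replicate 2, and the downward count from 1 to 2, being 1 without either of Yap KO replicates 2 and 3 or Yap HET replicates 1 and 2. The count of all called genes was 1353, against 508 with no filter, 2246 with the trended prior and 4617 with array weights. Of 150 recomputed log2 changes of Sox genes, 120 kept direction and side of the threshold, 11 lost and 10 gained the call, and 9 changed sign. The changes of sign were in Sox2, Sox5, Sox7 and Sox18, whose groups overlapped. With array weights Sox2 was at -0.012 and Sox5 at -0.049. The weight was 7.60 for Yap HET replicate 1 and 0.43 to 1.35 for the other arrays, so that array dominated its group. With single arrays left out Sox2 ranged from -0.012 to 0.24, Sox5 from -0.013 to 0.031, Sox7 from -0.028 to 0.063 and Sox18 from -0.12 to 0.0067. Sox9 against the mesenchymal markers ranged from -0.018 to 0.084. The cause of these differences was not tested. Signal in the range of the foregut markers limits what can be said of Sox2, Sox3, Sox5, Sox7, Sox17 and Sox18.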
